A study of Homo sapiens with 4 samples.

Results

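The 9 genes described here are PDGFRB, THY1, TAGLN, MYH11, MYH3, MYLPF, TNNC1, MYO10 and ALPK3, a group of receptor, surface, muscle and motor protein genes. They were chosen by symbol from the protein-coding genes that the authors listed as differentially expressed, 9 of 742 symbols, after their values were known. Their values below are therefore a description, without a test. K562, an established human line from chronic myelogenous leukaemia, was transfected with a scrambled control siRNA (2 libraries) or with an siRNA against the long non-coding RNA HMRHL (2 libraries). Total RNA was taken 36 hours later from both groups for stranded libraries, and nothing in the labels ties the replicate libraries to separate cultures. The table gives 1 value per gene for the whole contrast, with no value per library, level, error or p-value, so neither replicate spread nor sequencing depth is known for any value. The value column is headed as a fold change and names neither a log scale nor a direction. All values are read as log2 of knockdown over scramble, which the table does not state. Each fold given beside a value is worked out from this reading and is not the authors' own number.

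PDGFRB is a receptor tyrosine kinase for platelet-derived growth factors and is known for recruiting and maintaining pericytes and vascular smooth muscle, the mural cells of vessels. In muscle, myosin heavy chains with their light chains pull on actin filaments. Troponin and tropomyosin set this contraction by calcium in striated muscle, and phosphorylation of the regulatory light chain sets it in smooth muscle. K562 cells are blood-derived and are used as a model of erythroid and megakaryocytic differentiation, so these genes are mostly known from other tissues. The group is mixed, as PDGFRB, THY1, MYO10 and ALPK3 do not encode contractile filament proteins. Levels of these genes in K562 were not analysed here, so neither the labelled cell type nor the presence of mural or muscle transcripts could be checked by level.

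Among the 9 genes, 7 were listed as lower in the knockdown and 2 as higher, and 8 were listed at 4-fold or more. Of all 742 listed symbols, 69.4% were lower, 30.6% were higher and 39.6% were at 4-fold or more in the authors' deposited table. Lower genes were listed from -1.15 on but higher ones only from 1.50 on, which raises the lower share. With a minimum of 1.50 for both signs, chosen after seeing the data, 59.9% were lower. Read as signed linear fold changes, 0 of the 9 genes and 17 of the 742 symbols in the authors' deposited table would reach 4-fold. The median of the 9 values on the log2 scale was -2.18, beside -1.44 over all listed symbols, from the authors' deposited table. The 7 lower genes had a median of -2.30, beside -1.71 over all 515 lower symbols in the authors' deposited table. Because the genes were picked from these values, nothing is read from this difference.

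**Figure D1:**
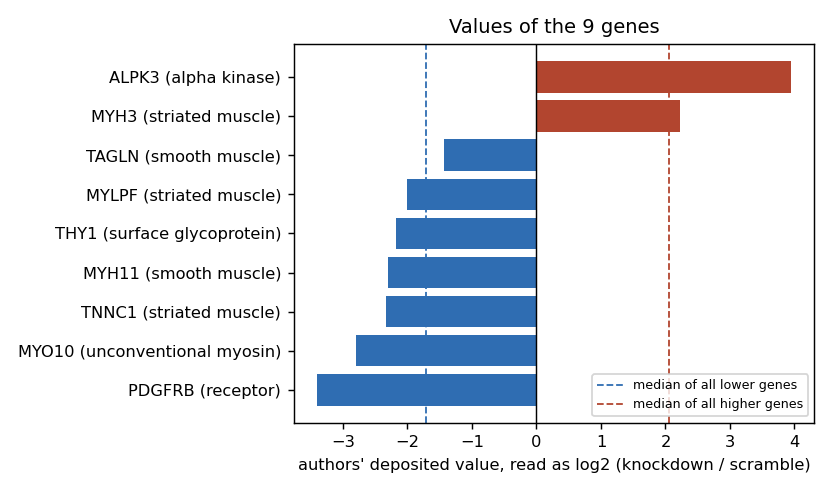
Value of each of the 9 genes from the authors' deposited table, taken as log2 of knockdown over scramble (horizontal axis), 1 bar per gene with no error because the table gives none. The bars of 7 genes point to lower and those of 2 genes, ALPK3 (3.94) and MYH3 (2.23), to higher; the dashed lines are the medians of all lower (-1.71) and all higher (2.05) listed genes.

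The receptor PDGFRB was the lowest of the 9, at -3.40 in the authors' deposited table, which is 10.5-fold lower if the value is log2. It ranked 29 of the 515 lower symbols there, between EGFL6 (-3.47) and TGFB1I1 (-3.30) in the authors' deposited table. EGFL6 is a secreted protein with EGF-like repeats, and TGFB1I1, also called Hic-5, is a focal adhesion adaptor of smooth muscle and fibroblasts. The other PDGF genes looked up, PDGFA, PDGFB, PDGFC, PDGFD, PDGFRA and PDGFRL, were not among the listed symbols, so the ligands of this receptor have no value here. THY1, a glycoprotein of the cell surface used as a marker of fibroblasts and mesenchymal cells, was at -2.18 (4.52-fold lower) in the authors' deposited table. Its neighbours in order of value were GPR37 (-2.18) and DNAH5 (-2.17) in the authors' deposited table, so its place in that order rests on differences in the second decimal or beyond.

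Both smooth muscle genes were listed as lower. MYH11, the myosin heavy chain of smooth muscle, was at -2.30 (4.94-fold lower) in the authors' deposited table, where it fills 2 rows with the same value. TAGLN, or transgelin, an actin-binding protein abundant in smooth muscle, was the smallest of the 9 in size, at -1.43 (2.70-fold lower) in the authors' deposited table. At rank 373 of the 515 lower symbols, TAGLN lay in the less extreme part of the lower genes, and on the log2 reading it is the only one of the 9 under 4-fold. MYH11 ranked 124, in the more extreme part.

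The striated muscle genes were listed in both directions. TNNC1, the calcium-binding troponin subunit of slow skeletal and cardiac muscle, was at -2.34 (5.06-fold lower) in the authors' deposited table. MYLPF, the regulatory light chain of fast skeletal muscle, was at -2.01 (4.03-fold lower) in the authors' deposited table, just past 4-fold on this reading. MYH3, the myosin heavy chain of embryonic skeletal muscle, was at 2.23 (4.68-fold higher) in the authors' deposited table. The heavy chains MYH3 and MYH11 thus had nearly equal sizes and opposite signs. MYH3 ranked 91 of the 227 higher symbols, TNNC1 116 and MYLPF 175 of the 515 lower ones.

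MYO10, an unconventional myosin that moves along actin bundles and promotes filopodia, was at -2.80 (6.97-fold lower) in the authors' deposited table. ALPK3, an alpha kinase family protein whose loss causes cardiomyopathy in humans, was the highest of the 9, at 3.94 (15.4-fold higher) in the authors' deposited table. MYO10 ranked 57 of the 515 lower symbols and ALPK3 11 of the 227 higher ones. In absolute size ALPK3 (rank 23 of 742) and PDGFRB (rank 48) stood furthest out, followed by MYO10 (rank 98); the other 6 ranked from 193 to 600. ALPK3 sat between AC097662.2 (3.97) and the platelet chemokine PPBP (3.89) in the authors' deposited table.

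**Figure D2:**
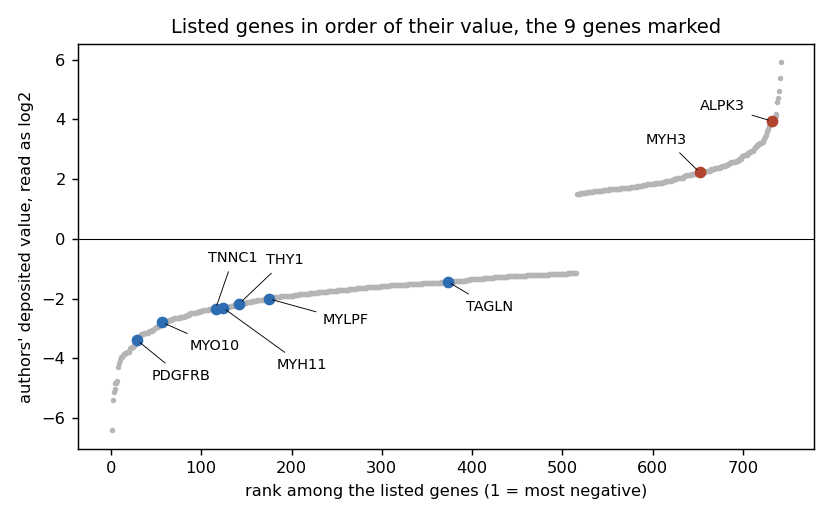
All 742 listed symbols ordered by their value in the authors' deposited table (horizontal axis, rank from the most negative; vertical axis, value read as log2), with the 9 genes coloured and named. PDGFRB (-3.40) and ALPK3 (3.94) lie towards the ends, TAGLN (-1.43) lies on the flat part, and no gene is listed between -1.15 and 1.50.

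Promoter sequences of 3 of the 9 genes were found in the RefSeq promoter table for GRCh38.p14: PDGFRB, MYO10 and ALPK3, which are also the 3 with the largest absolute values. THY1, TAGLN, MYH11, MYH3, MYLPF and TNNC1 had no entry. Each window holds 250 bases before and 50 bases from the annotated start on, and these 3 are shown because only they had an entry. The windows are chr5:150155796-150156095 on the minus strand for PDGFRB, chr5:16936239-16936538 on the minus strand for MYO10 and chr15:84817106-84817405 on the plus strand for ALPK3. Capitals mark the matches to the GC box, and in ALPK3 also the overlapping MEF2 and TATA box matches. The RefSeq start lies 27 bases downstream of the GENCODE gene start for PDGFRB, 12 upstream of it for MYO10 and 676 downstream of it for ALPK3. The whole ALPK3 window therefore lies inside the GENCODE span of that gene.
PDGFRB: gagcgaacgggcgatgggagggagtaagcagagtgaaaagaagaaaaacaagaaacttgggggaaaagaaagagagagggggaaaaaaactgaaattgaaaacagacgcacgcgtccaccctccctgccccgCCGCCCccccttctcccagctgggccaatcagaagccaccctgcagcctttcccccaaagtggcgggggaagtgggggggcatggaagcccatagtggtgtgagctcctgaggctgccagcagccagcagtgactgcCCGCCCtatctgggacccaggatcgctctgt
MYO10: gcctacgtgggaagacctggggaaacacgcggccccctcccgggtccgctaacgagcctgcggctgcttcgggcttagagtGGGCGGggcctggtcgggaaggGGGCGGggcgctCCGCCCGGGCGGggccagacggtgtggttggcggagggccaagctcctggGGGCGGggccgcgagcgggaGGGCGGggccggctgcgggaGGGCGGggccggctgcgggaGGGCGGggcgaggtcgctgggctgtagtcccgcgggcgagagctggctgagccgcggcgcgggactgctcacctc
ALPK3: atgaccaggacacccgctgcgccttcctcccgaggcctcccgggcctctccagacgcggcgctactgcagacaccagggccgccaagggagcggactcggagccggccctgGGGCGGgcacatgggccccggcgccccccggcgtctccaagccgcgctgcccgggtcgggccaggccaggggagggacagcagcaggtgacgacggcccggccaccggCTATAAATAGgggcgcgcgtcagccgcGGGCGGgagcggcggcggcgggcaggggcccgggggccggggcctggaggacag

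Both strands of each window were searched for the GC box (GGGCGG, bound by SP1 family factors), the E-box (CANNTG, bound by basic helix-loop-helix factors), the TATA box (TATAAA) and the MEF2 site. Searched as well were the CArG box of serum response factor, MCAT (CATTCC, bound by TEAD factors), a GATA motif (AGATAA) and a SMAD motif (GTCTAGAC). The MYO10 window held 8 GC box matches, of which the 4 nearest the start begin at -85, -65, -45 and -25, each 20 bases from the next. At least 8 GC box matches were found in 0.801% of the 34943 RefSeq promoters, and at least 1 in 44.9%. These promoters were not matched for base composition, and the MYO10 window had 78.3% G and C beside their median of 58.7%. PDGFRB and ALPK3 held 2 GC box matches each, a number reached by 26.7% of promoters.

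The ALPK3 window held a MEF2 match from -31 on, within which the TATA box match begins at -30, so a single stretch of bases gives both. Of all 34943 promoters, 3.0% held a MEF2 match and 11.6% a TATA box. PDGFRB held 1 E-box and ALPK3 2, in a motif found in 68.7% of all promoters. None of the 3 windows held a CArG box, MCAT, GATA or SMAD match, which 1.3%, 14.0%, 10.4% and 0.203% of all promoters held. In base composition, the MYO10 and ALPK3 windows had 78.3% and 78.0% G and C and 37 and 36 CpG dinucleotides. PDGFRB had 59.3% and 11, beside medians of 58.7% and 14 over all promoters. A match is a run of letters only, and no binding was measured here.

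**Figure D3:**
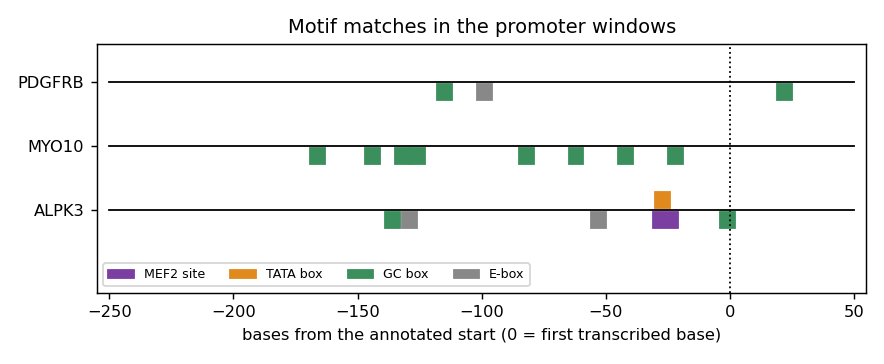
Matches to 4 motifs in the promoter windows of PDGFRB, MYO10 and ALPK3, drawn to scale against the distance in bases from the annotated start (horizontal axis, 0 is the first transcribed base); the TATA box is drawn above the line. The 8 GC box matches of MYO10 include a row of 4 at equal spacing, and the MEF2 and TATA box matches of ALPK3 overlap.

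In GENCODE release 29 on GRCh38, the 9 genes lie on 6 chromosomes. PDGFRB spans chr5:150113837-150155872 and MYO10 chr5:16661914-16936276, both on the minus strand and 133178 kb apart. THY1 (chr11:119417378-119424985, minus strand) and TAGLN (chr11:117199321-117204782, plus strand) are the closest pair, 2213 kb apart. MYH11 (chr16:15703172-15857033, minus strand) and MYLPF (chr16:30370934-30377991, plus strand) lie on the chromosome of PHKB, whose intron holds HMRHL. MYH3 spans chr17:10628526-10657309 and TNNC1 chr3:52451102-52454070, both on the minus strand, and ALPK3 spans chr15:84816680-84873482 on the plus strand. Gene spans ran from 2.97 kb for TNNC1 to 274 kb for MYO10, with a median of 28.8 kb beside 30.2 kb over the 740 listed symbols with a position.

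Within 1000 kb of the 9 genes, 9 other listed genes were found, 3 higher and 6 lower, and 4 of the 9 (THY1, TAGLN, MYH3 and MYO10) had none. The lower share of these neighbours was 66.7%, beside 69.4% of all 742 listed symbols. Neighbours of the other listed genes were not counted, so nothing is read from these numbers. The nearest neighbour was STAB1, a scavenger receptor gene 41 kb from TNNC1, at -1.62 in the authors' deposited table. PDGFRB had 3 within this distance, namely IRGM (1.83), AFAP1L1 (-2.72) and GPX3 (-2.77) in the authors' deposited table. AFAP1L1 is an actin filament-associated protein, GPX3 a secreted glutathione peroxidase and IRGM a GTPase of autophagy. The nearest to MYLPF was FAM57B (-1.59), 318 kb away, and the nearest to ALPK3 was AKAP13 (2.34), a protein kinase A anchoring protein 507 kb away, in the authors' deposited table. Near MYH11 only NPIPA7 (-1.85) was listed, 522 kb away, in the authors' deposited table, and it belongs to a multicopy family whose reads may be shared between copies.

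In 3 of the 9 genes, exons share bases with exons on the opposite strand, beside 37.4% of the 740 listed symbols with a position. MYH11 shares 765 exonic bases (4.75%) with NDE1, a dynein regulator, and also overlaps the antisense genes AF001548.2 and AF001548.1. TAGLN shares 446 bases (11.4%) with PCSK7, a proprotein convertase, and THY1 shares 632 bases (10.7%) with AP003396.5. NDE1 and PCSK7 were not among the listed symbols. The library kit keeps strand, but no source used here states that strand entered the counting, and reads from these shared bases may belong to either gene. No other gene matched 50% or more of the longest coding transcript of any of the 9 at 95% identity. At 80% identity there was 1 such match, that of MYH1, another skeletal myosin heavy chain, over 95.5% of the MYH3 transcript. This count depends on the cut, as the mean identity to MYH3 was 80.2% for MYH1 and 79.8% for MYH2. At 80% identity MYH2 matched 32.5% of the MYH3 transcript.

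The other genes of the same pathways and structures were looked up in 15 lists. They were drawn up with earlier results of these data known, and 5 genes in them (NOTCH3, ZIC1, ENG, PYGM and TGFB1I1) were already known to be listed. Of 255 annotated genes in the lists, 23 were listed, the 9 genes included. Leaving out the 9 and those 5, 9 of 241 were listed (3.73%), beside 3.71% of all annotated protein-coding symbols, a share near the background. Erythroid genes, also known beforehand not to be listed, lower this share; in the 8 contractile and motor lists alone it was 8 of 142 (5.63%), 3 higher and 5 lower. Many annotated genes may not be expressed in K562, so these shares are not an enrichment.

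For the thick and thin filament, 3 of 15 conventional myosin heavy chains were listed, MYH11 and MYH3 with MYH7B, a slow-type heavy chain at -2.16 in the authors' deposited table. MYH11, MYH3, MYLPF and TNNC1 were picked because they are listed, which raises the counts that hold them. Without them, 1 heavy chain and 2 light chain or kinase genes were listed. Of all annotated protein-coding symbols, 3.71% were listed. Of 17 light chains and light chain kinases, 3 were listed: MYLPF, with the skeletal muscle kinase MYLK2 at -2.04 and the related MYLK4 at 1.60 in the authors' deposited table. MYLK2 encodes a kinase that phosphorylates the regulatory light chain of skeletal myosin. TNNC1 was the only one of 19 troponin, tropomyosin and tropomodulin genes listed, so none of the troponin I and T genes has a value here. Of 33 sarcomere structure genes, none of them among the 9, 2 were higher and 1 lower. The Xin repeat protein XIRP2 was at 2.25, the titin cap TCAP at 1.83 and the Z-disc protein ACTN2 at -1.33 in the authors' deposited table. Of 21 genes of calcium handling and muscle energy supply, PYGM alone was listed; this muscle glycogen phosphorylase stood at -2.07 in the authors' deposited table.

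All 3 of the 24 smooth muscle genes that were listed were lower, MYH11 and TAGLN with the actin-binding CALD1, or caldesmon, at -1.85 in the authors' deposited table. MYH11 and TAGLN were picked from their values and 69.4% of all listed symbols were lower, so this count adds CALD1 alone. ACTA2, CNN1 and MYLK, other defining genes of smooth muscle, were not among the listed symbols. Of 19 pericyte and mural cell markers, 3 were listed: PDGFRB, with the receptor NOTCH3 at 2.87 and the zinc finger factor ZIC1 at -4.16 in the authors' deposited table. CSPG4 and RGS5, widely used pericyte markers, were not listed. Of 17 fibroblast and mesenchymal markers, 3 were listed and lower, PDGFRB and THY1, picked likewise, with ENG, a TGF-beta coreceptor at -2.64 in the authors' deposited table. ENG, also an endothelial gene, was the only one of 12 endothelial markers listed. A gene that is not listed was not selected by the authors, and its level may or may not have differed.

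Of 24 unconventional myosins, MYO10 and MYO7A, a motor of hair cells, were listed, the latter at -1.36 in the authors' deposited table. ALPK3 was the only one of 6 alpha kinases listed, and both MYO10 and ALPK3 were picked because they are listed. Among 19 integrin and cytoskeletal adaptors, TGFB1I1 was at -3.30 and the focal adhesion protein TNS1, or tensin, at 2.05 in the authors' deposited table. Serum response factor, its coactivators and the myogenic and cardiac factors (22 annotated genes, SRF, MYOCD and MYOD1 included) had no listed member. At the share of all protein-coding symbols listed (3.71%), the absence of a list this short is not a result. None of the 16 erythroid and K562 marker genes was listed either.

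**Figure D4:**
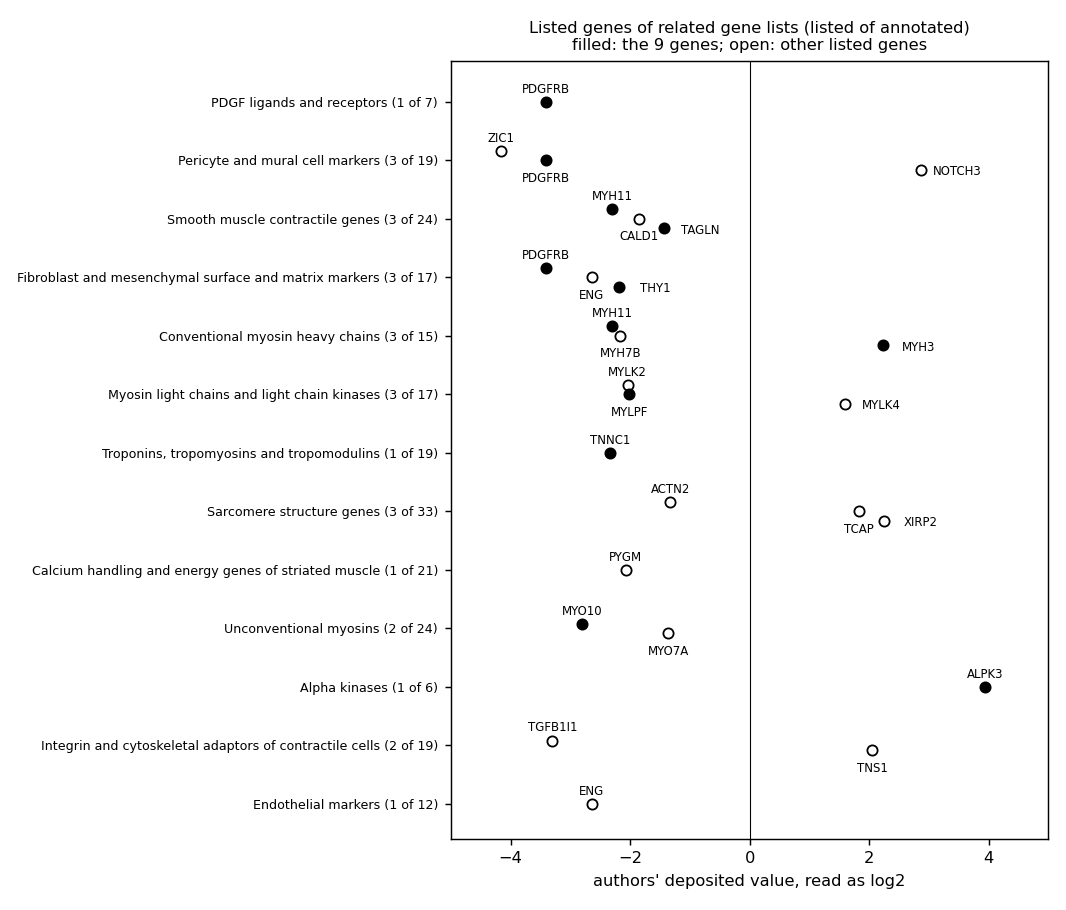
Listed genes of each related gene list (rows, with the number listed of the number annotated) by their log2-read value from the authors' deposited table (horizontal axis), filled for the 9 genes and open for others; points of a row are shifted vertically for legibility. The listed smooth muscle genes (3 of 24), fibroblast and mesenchymal markers (3 of 17) and unconventional myosins (2 of 24) lie on the lower side. The myosin heavy chains, light chains, sarcomere genes and pericyte markers lie on both sides. The filled genes were picked from their values, and ENG was known beforehand to be listed. As 69.4% of all listed symbols were lower, nothing is read from the side on which a list lies.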

How the data were processed

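The authors deposited 1 table with a gene symbol and a fold change per row for genes they had selected, read here as log2 because both signs occur and because the values end at 6 significant digits, as Cuffdiff prints its log2 column. Signed linear fold changes would also show both signs and could carry as many digits. Neither point settles the scale, and the values could be of that kind. Named in the submitters' processing notes are Cuffdiff, Cufflinks, TopHat, Bowtie2, SAMtools 1.3.1 and Trim Galore 0.4.4, with GRCh38 and hg38 as builds; settings and the selection threshold are not given in the sources used here. Without counts, levels or values per library no test, replicate error or depth could be computed.

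Each symbol was counted once (831 rows, 742 symbols). Positions came from GENCODE release 29, matched by symbol for 740. Copies were sought with BLAST 2.17.0. Motif search was tested on simulated windows with a fixed CArG box sequence, MCAT or the TATA box planted in them. The GC box, E-box, MEF2, GATA and SMAD patterns were not tested in this way. Exon overlap was checked on a few made-up intervals. Named are the 9 genes, every listed gene of the related lists and, for PDGFRB, THY1 and ALPK3 only, the neighbours in value. Genomic neighbours are named as well, chosen after their values were seen. The genes and lists were chosen with earlier results of these data known. Python 3.11.15, numpy 2.4.6, pandas 2.3.3 and matplotlib 3.10.9 were used.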

Additional observations from a re-analysis of the deposited data

How the results depend on the processing

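Read with positive values as lower in the knockdown, 2 of the 9 genes would be lower, their median would be 2.18 and 30.6% of all listed symbols would be lower. Read as signed linear fold changes, PDGFRB would be 3.40-fold lower and ALPK3 3.94-fold higher, and the number at 4-fold or more would go from 8 to 0 of the 9 genes and from 294 to 17 of all listed symbols (counted after seeing the data). Counting every row gave 8 lower values for these genes, because MYH11 fills 2 rows, and a minimum of 4-fold or of 1.50 for both signs (chosen after seeing the data) left 6 lower and 2 higher, without TAGLN. Both put 59.9% of the remaining listed symbols lower. Translating older symbols gave the same 23 listed genes of the related lists. No paired analysis was possible because the table holds no values per library; for the same reason leaving out replicates, pseudocounts and low-value filters were not run.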
